A study of Homo sapiens with 6 samples.

Results

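The CDK inhibitors and G1 cyclins examined here are 10 genes that control entry into and passage through the G1 phase of the cell cycle. They were chosen by symbol, for their place in G1 control and its link to endoreplication, and comprise the Cip/Kip inhibitors CDKN1A, CDKN1B and CDKN1C, the INK4 inhibitors CDKN2C and CDKN2D, the D cyclins CCND1, CCND2 and CCND3, the E cyclin CCNE1 and the kinase CDK6. The choice was made with earlier results of these data known. All 10 of these symbols mapped to a row among the 58735 genes of the count table, and all 10 were among the 15078 genes with enough counts to be tested (10 or more in 3 libraries). RNA of Meg-01, an established human megakaryoblast cell line, was sequenced in 6 libraries. The control group held 3 libraries of untreated cells, and the C3 group held 3 libraries of cells treated with 500 µM sodium propionate (C3), a salt of a short-chain fatty acid that gut bacteria make. The labels give 48 h as the time of treatment, whereas the methods give both 24 h and 48 h of culture before RNA extraction. A figure legend of the study calls the libraries technical replicates, and no source says that they came from separate cultures, so the p-values measure the spread between these libraries.

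Cells pass from G1 into DNA synthesis once cyclin D bound to CDK4 or CDK6, and then cyclin E bound to CDK2, phosphorylate the retinoblastoma protein and release E2F transcription factors. INK4 proteins hold back CDK4 and CDK6, whereas Cip/Kip proteins bind a wider range of cyclin and CDK complexes. Megakaryocytes are known for endoreplication, in which DNA is copied in repeated rounds without cell division, and in which D and E cyclins and Cip/Kip inhibitors take part.

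Library totals ranged from 16159449 to 22821722 counts. Values below are normalized counts, which are counts scaled by edgeR's TMM factors to the mean library. Control and C3 libraries lay on opposite sides of the first principal component, which held 45.5% of the variance. On the next component, with 17.4%, control replicate 3 lay at -21.3, away from control replicates 1 and 2 (12.5 and 10.9), and C3 replicate 1 lay at 13.4, away from C3 replicates 2 and 3 (-10.4 and -5.09). Results without either library are therefore given beside the members. No pair of libraries within a group was a duplicate, since the chi-square of their counts was at least 2.44 per degree of freedom.

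The cell line label was checked against marker genes. Of 17 megakaryocyte markers, 15 were tested, and their summed normalized counts were 40777, 41012 and 38563 in the control libraries and 41531, 38180 and 39284 in the C3 libraries. ITGA2B, a platelet integrin subunit, was the most abundant, with 11611 to 13336 normalized counts, whereas PF4 and GP1BB, both typical of mature megakaryocytes, were at 0 in all 6 libraries. Among megakaryocyte markers, THBS1, which encodes a platelet granule protein, was called higher by edgeR (log2 fold change 0.91, adjusted p = 2.12e-09), and GP1BA, a subunit of the von Willebrand factor receptor, was called lower (-0.49, adjusted p = 2.17e-06). TUBB1, the platelet tubulin, was also called lower (-1.36, adjusted p = 0.00253 by edgeR), and lost its call without control replicate 1 (-1.31, adjusted p = 0.0127) or C3 replicate 1 (-1.12, adjusted p = 0.0105). Its level was low, with 38.2 to 42.1 normalized counts in control and 9.11 to 19.1 in C3 libraries. Of its exon bases, 35.5% overlap ATP5F1E on the opposite strand. Reads of these genes cannot be told apart there if the strand was not used for counting. Markers of other cell types gave lower sums. The 10 erythroid markers, of which 7 were tested and KLF1 was the most abundant, summed to 1309 to 1446 in control and 1524 to 1604 in C3 libraries, with HBG1, HBG2 and HBZ below 10 counts in every library. The 8 granulocyte and monocyte markers, 4 of them tested, summed to 900.3 to 955 in control and 729 to 752 in C3 libraries. LYZ led this list and was called lower (-0.51, adjusted p = 4.65e-05 by edgeR), and FCGR3A was at 0. The 7 fibroblast markers, also with 4 tested, summed to 691 to 850.2 in control and 507 to 539 in C3 libraries. LUM, the most abundant of them, was called lower (-0.66, adjusted p = 6.38e-06 by edgeR), and COL1A1 was called higher at 2.39 to 26.7 normalized counts (1.89, adjusted p = 0.00942), a call that was lost without control replicate 1 (2.13), 2 (2.0) or 3 (1.62) and by limma-voom (adjusted p = 0.0159). COL1A1 reached 10 counts in the C3 libraries only, so it was not tested with any of these left out. The 8 lymphocyte markers, led by CD4 and with 3 tested, summed to 4928 to 5256 in control and 4703 to 4993 in C3 libraries, with MS4A1 at 0. The 6 epithelial markers, of which only EPCAM was tested, summed to 169 to 227 in control and 180.4 to 214 in C3 libraries, with KRT5, KRT14 and KRT19 at 0. Within these lists the tested genes went both ways, with 4 higher and 3 lower in the erythroid list (median log2 fold change 0.14), 2 and 2 in the granulocyte and monocyte list (0.018) and 3 and 1 in the fibroblast list (0.58), where LUM alone was lower. The erythroid, granulocyte and fibroblast sums thus differed between the groups without a common direction of their genes, and their part in the results below was not tested.

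Between control and C3 libraries, CDKN1A and CDKN1C, both of the Cip/Kip family, differed in opposite directions. CDKN1A and CCND1 rose 1.44-fold and 1.52-fold, whereas CDKN1C fell by 25.5% and CDKN2C fell by 26.6%. CDKN1B and CDKN2D (-15.1% each) passed a looser threshold only, and not in every alternative fit. CCND2, CCND3, CCNE1 and CDK6 did not pass either threshold. In RNA from whole cultures, fewer cells that express a gene and less of its RNA per cell cannot be told apart. Since no source names separate cultures, an effect of the treatment and a difference between cultures cannot be told apart either.

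**Figure D1:**
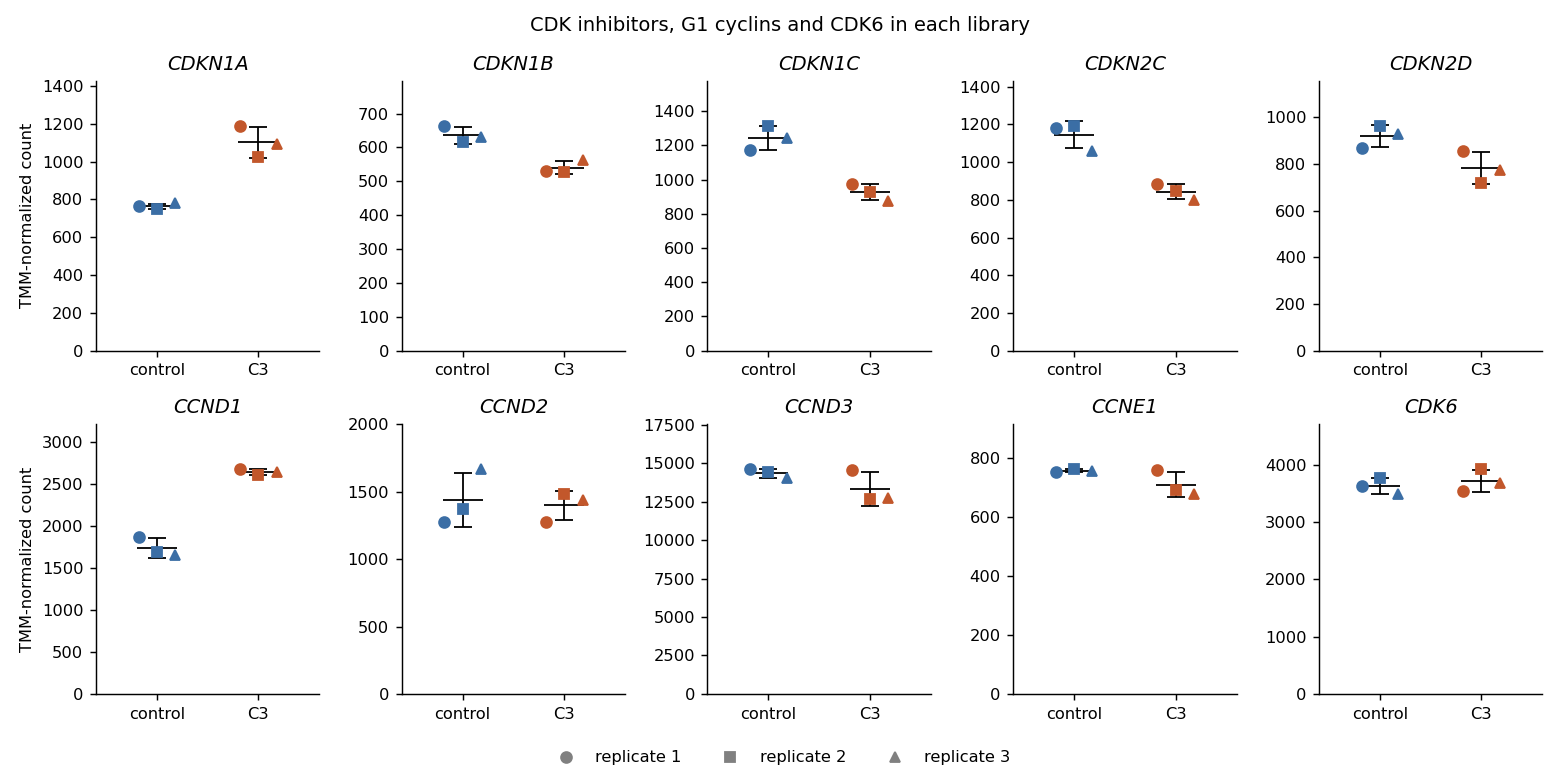
Normalized counts of the 10 members in each library (vertical axes, TMM-normalized counts from 0, scaled separately for each gene) for control (blue) and C3 (orange), with a symbol for each replicate number, the group mean as a horizontal line and the SD as error bars (n = 3 libraries). The groups stand apart in CDKN1A, CDKN1B, CDKN1C, CDKN2C, CDKN2D and CCND1, and overlap in CCND2, CCND3, CCNE1 and CDK6.

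A gene was called when edgeR's quasi-likelihood test gave a Benjamini-Hochberg adjusted p-value below 0.01, adjusted over all 15078 genes, and the fold change exceeded 1.3 in either direction. By this rule 2 of the 10 members were called higher, as were 5.05% of all tested genes, and 2 were called lower, as were 1.47% of all tested genes. In either direction the calls were 4 of 10 members and 6.52% of all tested genes. At an adjusted p-value below 0.05 with no gate on the fold change, 2 members were higher (11.0% of all tested genes) and 4 lower (8.77%), or 6 of 10 against 19.8% in either direction. In 6 of the 10 members the groups did not overlap, 2 with C3 higher and 4 with C3 lower, and the same held for 17.5% and 16.9% of all tested genes, together 34.4%. An exact permutation test (two-sided) gave 0.1 for each of the 6, and no smaller p-value is possible with 3 against 3 libraries. The median log2 fold change was -0.10 over the members and 0.0021 over all tested genes. Without control replicate 3, and likewise without C3 replicate 1, 2 members were called higher and 2 lower, and DESeq2 and limma-voom gave these numbers as well. Over all tested genes, 584 of 14970 were higher and 194 lower without control replicate 3. Without C3 replicate 1 these were 766 and 340 of 14865. DESeq2 called 561 genes higher and 191 lower in all, and limma-voom 730 and 231. With scaling by library size alone, which moved the median of all tested genes by 0.074, 2 members were called higher and 0 lower by edgeR. Over all tested genes that scaling gave 1025 higher and 100 lower, against 761 and 222 in the main fit.

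**Figure D2:**
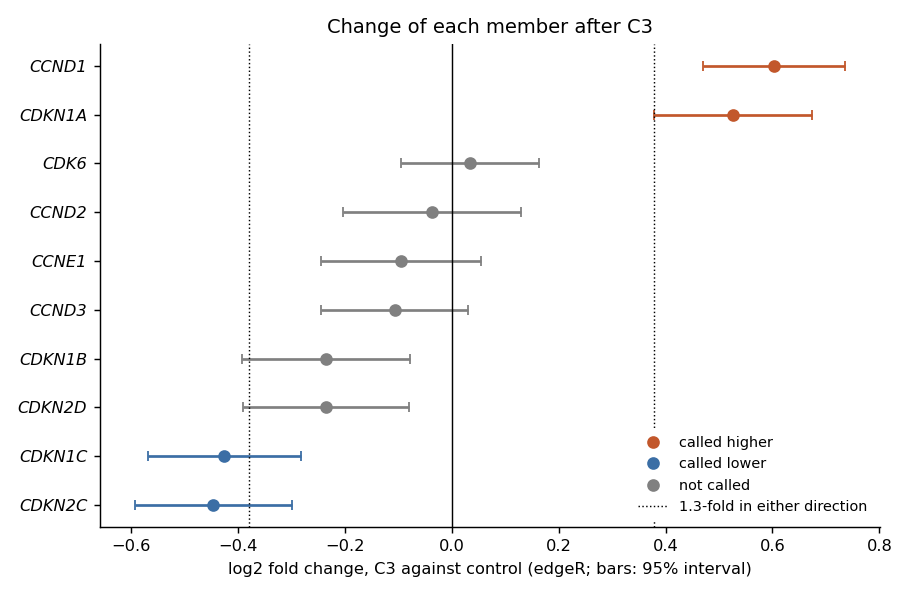
Log2 fold change of each member, C3 against control (horizontal axis), from edgeR's quasi-likelihood fit over 3 libraries per group, with 95% confidence intervals as bars and dotted lines at a 1.3-fold change in either direction. CCND1 and CDKN1A lie above the upper line and CDKN1C and CDKN2C below the lower one, and the intervals of CCND2, CCND3, CCNE1 and CDK6 include 0.

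CDKN1A (ENSG00000124762) encodes p21, a Cip/Kip inhibitor that is induced in many forms of cell cycle arrest, and lies on the forward strand at chr6:36676460-36687337 of GRCh38. Its normalized counts were 763, 751 and 779 in control replicates 1 to 3 and 1188, 1024 and 1093 in C3 replicates 1 to 3. The control libraries differed little from each other, every C3 library was higher than any of them, and the highest value was in C3 replicate 1. The mean rose from 764 ± 13.9 to 1102 ± 82.4 (SD, n = 3), giving a log2 fold change of 0.53 (standard error 0.072, 95% interval 0.38 to 0.67) with an adjusted p-value of 8.19e-06 by edgeR. By p-value CDKN1A ranked 152 of the 15078 genes. Its log2 fold change was 0.54 without control replicate 3 and 0.47 without C3 replicate 1, and the call was kept in both. DINOL, a noncoding gene of the opposite strand that shares 4.87% of the exon bases of CDKN1A, had 0 counts in every library.

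CDKN1B (ENSG00000111276, chr12:12685498-12722369, forward strand) encodes p27, an inhibitor that restrains cyclin E and CDK2 in resting cells. Its normalized counts were 663, 615 and 629 in control and 529, 528 and 561 in C3 libraries. Every C3 library lay below every control library, with a gap between the groups that was larger than the range within either of them. The means were 636 ± 24.7 and 540 ± 18.9 (SD, n = 3), and the log2 fold change of -0.24 (standard error 0.077, 95% interval -0.39 to -0.078) had an adjusted p-value of 0.0299 by edgeR, so that CDKN1B was not called. Its log2 fold change was -0.24 without control replicate 3 (adjusted p = 0.0477 by edgeR) and -0.22 without C3 replicate 1 (adjusted p = 0.0415). The adjusted p-value was above 0.05 without control replicate 1 (0.156) or 2 (0.0643), without C3 replicate 2 (0.104) or 3 (0.065), with scaling by library size alone (0.174), with no count filter (0.0758) and by DESeq2 (0.0581).

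CDKN1C (ENSG00000129757, chr11:2883213-2885775, reverse strand) encodes p57, the third Cip/Kip inhibitor and an imprinted gene. It had normalized counts of 1171, 1313 and 1242 in control and of 973, 928 and 877 in C3 libraries. The groups were separate, and the lowest control library was still higher than C3 replicate 1, the highest of the treated ones. The mean fell from 1242 ± 71.1 to 926 ± 48.2 (SD, n = 3), at a log2 fold change of -0.42 (standard error 0.070, 95% interval -0.57 to -0.28) and an adjusted p-value of 9.32e-05 by edgeR. This fold of 1.34 in the lower direction is close to the gate of 1.3. With scaling by library size alone the log2 fold change was -0.35 and the fold gate was missed, although edgeR's adjusted p-value was 9.70e-04, in a range over all alternative fits of 8.59e-08 to 0.00241. Without control replicate 3 it was -0.42, and without C3 replicate 1 it was -0.46.

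CDKN2C (ENSG00000123080, chr1:50960745-50974634, forward strand) encodes p18, an INK4 inhibitor of CDK4 and CDK6. Normalized counts were 1183, 1192 and 1062 in control and 883, 845 and 801 in C3 libraries. Control replicate 3 was the lowest control library and still lay above all C3 libraries. The mean fell from 1146 ± 73.0 to 843 ± 40.9 (SD, n = 3), giving a log2 fold change of -0.45 (standard error 0.071, 95% interval -0.59 to -0.30) with an adjusted p-value of 6.71e-05 by edgeR. As for CDKN1C, scaling by library size alone left it short of the fold gate (log2 fold change -0.37, edgeR's adjusted p-value 8.70e-04, range over the alternative fits 3.72e-08 to 0.00171). Its log2 fold change was -0.50 without control replicate 3 and -0.48 without C3 replicate 1. Of its exon bases, 20.4% overlap ENSG00000290102, an annotated gene of the opposite strand that was not analysed here, and reads of the 2 genes cannot be told apart where the strand was not used for counting.

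CDKN2D (ENSG00000129355, chr19:10566460-10569059, reverse strand) encodes p19, the other INK4 inhibitor among the members. The control libraries had 868, 962 and 928 normalized counts and the C3 libraries 854, 717 and 774. The groups did not overlap, but C3 replicate 1 lay only just below control replicate 1. Means were 919 ± 47.5 and 781 ± 68.7 (SD, n = 3), and the log2 fold change of -0.24 (standard error 0.076, 95% interval -0.39 to -0.081) had an adjusted p-value of 0.0276 by edgeR, which was not a call. It was -0.30 without C3 replicate 1 (adjusted p = 0.0044 by edgeR), still below the gate on the fold change, and -0.23 without control replicate 3 (adjusted p = 0.0604). The adjusted p-value was also above 0.05 without control replicate 2 (0.151), without C3 replicate 2 (0.168) or 3 (0.11) and with scaling by library size alone (0.133).

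CCND1 (ENSG00000110092, chr11:69641156-69654474, forward strand) encodes cyclin D1, the D cyclin that links growth factor signals to CDK4 and CDK6 in many cell types. Its normalized counts were 1875, 1691 and 1650.2 in control and 2677, 2607 and 2645 in C3 libraries. The C3 libraries were closely grouped and far above the controls, of which replicate 1 was the highest. The mean rose from 1739 ± 119.7 to 2643 ± 35.0 (SD, n = 3), giving a log2 fold change of 0.60 (standard error 0.064, 95% interval 0.47 to 0.73) with an adjusted p-value of 2.15e-07 by edgeR. With rank 52 of 15078 by p-value, CCND1 stood first among the members. Without control replicate 3 its log2 fold change was 0.57, and it was 0.60 without C3 replicate 1. LTO1 overlaps 10.4% of the exon bases of CCND1 on the opposite strand, and its log2 fold change was 0.013 (adjusted p = 0.95 by edgeR), at 308 to 431 normalized counts.

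CCND2 (ENSG00000118971, chr12:4269771-4305353, forward strand) encodes cyclin D2, a paralog of cyclin D1. Its normalized counts were 1278, 1371 and 1668 in control and 1275, 1482 and 1439.8 in C3 libraries. Control replicate 3 was the highest of all and C3 replicate 1 the lowest, and the groups overlapped. The log2 fold change was -0.037 (standard error 0.081, 95% interval -0.20 to 0.13; adjusted p = 0.804 by edgeR), and its sign turned without control replicate 3 (0.081) or without C3 replicate 1 (0.027). ENSG00000285901, which shares 12.5% of the exon bases on the same strand, had at most 1 count in a library, and CCND2-AS1 on the other strand had 2 to 6 counts and was not tested.

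CCND3 (ENSG00000112576, chr6:41934934-42050357, reverse strand) encodes cyclin D3, the D cyclin with the highest level per length in these cells. It had 14613, 14416 and 14023 normalized counts in control and 14581, 12669 and 12739 in C3 libraries. C3 replicate 1 lay among the controls, and the other treated libraries lay below them. The log2 fold change was -0.11 (standard error 0.067, 95% interval -0.24 to 0.031; adjusted p = 0.285 by edgeR). Without C3 replicate 1 it was -0.17 (adjusted p = 0.0124 by edgeR), and without control replicate 3 it was -0.12 (adjusted p = 0.25). It was closer to 0 without C3 replicate 2 (-0.069) or 3 (-0.072) and with scaling by library size alone (-0.035).

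CCNE1 (ENSG00000105173, chr19:29811991-29824312, forward strand) encodes cyclin E1, the partner of CDK2 at the start of DNA synthesis. Normalized counts were 752, 764 and 758 in control and 761, 692 and 681 in C3 libraries. Here too C3 replicate 1 lay among the controls, while C3 replicates 2 and 3 were lower. The log2 fold change was -0.094 (standard error 0.073, 95% interval -0.24 to 0.055; adjusted p = 0.402 by edgeR), and it was -0.094 without control replicate 3 (adjusted p = 0.455) and -0.14 without C3 replicate 1 (adjusted p = 0.153). The smallest values were -0.059 without C3 replicate 3 and -0.021 with scaling by library size alone.

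CDK6 (ENSG00000105810, chr7:92604921-92836573, reverse strand) encodes a kinase partner of the D cyclins that is abundant in blood cell precursors. Its normalized counts were 3634, 3768 and 3482 in control and 3544, 3920.1 and 3675 in C3 libraries. The ranges of the groups lay across each other. The log2 fold change was 0.033 (standard error 0.063, 95% interval -0.096 to 0.16; adjusted p = 0.764 by edgeR), and the whole interval lay within the fold gate. It was 0.0055 without control replicate 3, 0.068 without C3 replicate 1 and -0.0044 without C3 replicate 2, and 0.11 with scaling by library size alone. CDK6-AS1 had 6 to 9 counts per library and was not tested.

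Levels of different genes were compared as normalized counts per kilobase of merged exons. Merged exons include every annotated exon, whether or not these cells use it, so the order of the genes depends on this length. For CDKN1B, with 9255 bases of merged exons, a shorter transcript in use would give a higher level, and transcript use was not tested. In control cells CCND3 was the highest (2491 ± 52.2 per kilobase, SD, n = 3), followed by CDKN2D (611 ± 31.6) and CDKN1C (501 ± 28.7). CDKN2C (380 ± 24.2 per kilobase) and CCND1 (365 ± 25.1) came next, with overlapping library ranges. CCNE1 (308 ± 2.27 per kilobase) and CDK6 (296 ± 11.7) also overlapped, and CDKN1A (255 ± 4.64), CCND2 (180.2 ± 25.5) and CDKN1B (68.7 ± 2.67) were the lowest. After C3 treatment CCND3 was still the highest (2314 ± 188 per kilobase, SD, n = 3), and CCND1 (555 ± 7.36) stood beside CDKN2D (519 ± 45.6) with overlapping ranges. CDKN1A (368 ± 27.5 per kilobase) had moved to the level of CDKN1C (373 ± 19.5), again with overlapping ranges. CDKN2C (279 ± 13.6 per kilobase) was then among CDK6 (303 ± 15.6) and CCNE1 (289 ± 17.8), whose ranges overlapped from each to the next, and CCND2 (175 ± 13.7) and CDKN1B (58.3 ± 2.04) were the lowest as before.

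The make-up of the families followed from these levels. Among D cyclins, the share of CCND1 in the counts per kilobase was 12.7%, 11.7% and 11.6% in control and 17.3%, 18.7% and 18.9% in C3 libraries, and that of CCND3 was 82.1%, 82.6% and 81.4% in control and 77.8%, 75.0% and 75.0% in C3 libraries. CCND3 thus remained the predominant D cyclin in every library. CCND2 made up 5.94% ± 0.93 of the D cyclins in control and 5.78% ± 0.77 in C3 libraries (SD, n = 3). Among Cip/Kip inhibitors, CDKN1A had shares of 31.9%, 29.6% and 31.4% in control and 46.9%, 44.2% and 46.8% in C3 libraries. CDKN1C held 59.1%, 62.5% and 60.4% in control and 46.4%, 48.4% and 45.4% in C3 libraries, so that the larger part in the control cells became about equal to that of CDKN1A. CDKN1B held 8.34% ± 0.57 and 7.31% ± 0.52 (SD, n = 3). These shares, and the Cip/Kip sum below, depend on the merged exon lengths. They are 2996 bases for CDKN1A, 9255 for CDKN1B and 2480 for CDKN1C, and include exons that these cells may not use. Among INK4 inhibitors, CDKN2C had 38.3% ± 2.08 in control and 35.0% ± 1.72 in C3 libraries (SD, n = 3), and these ranges overlapped. The summed level per kilobase was 3036 ± 50.8 in control and 3044 ± 181 in C3 libraries for the D cyclins (a difference of 0.251%; SD, n = 3 libraries each). It was 824 ± 24.3 and 799 ± 40.5 for the Cip/Kip inhibitors (-3.03%). For the INK4 inhibitors, of which only CDKN2C and CDKN2D were members, it was 990.3 ± 37.8 and 799 ± 54.3 (-19.4%; SD, n = 3 libraries each). The D cyclin and Cip/Kip sums overlapped between the groups, whereas every C3 library had a lower INK4 sum (756 to 859.8) than every control library (968 to 1034).

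**Figure D3:**
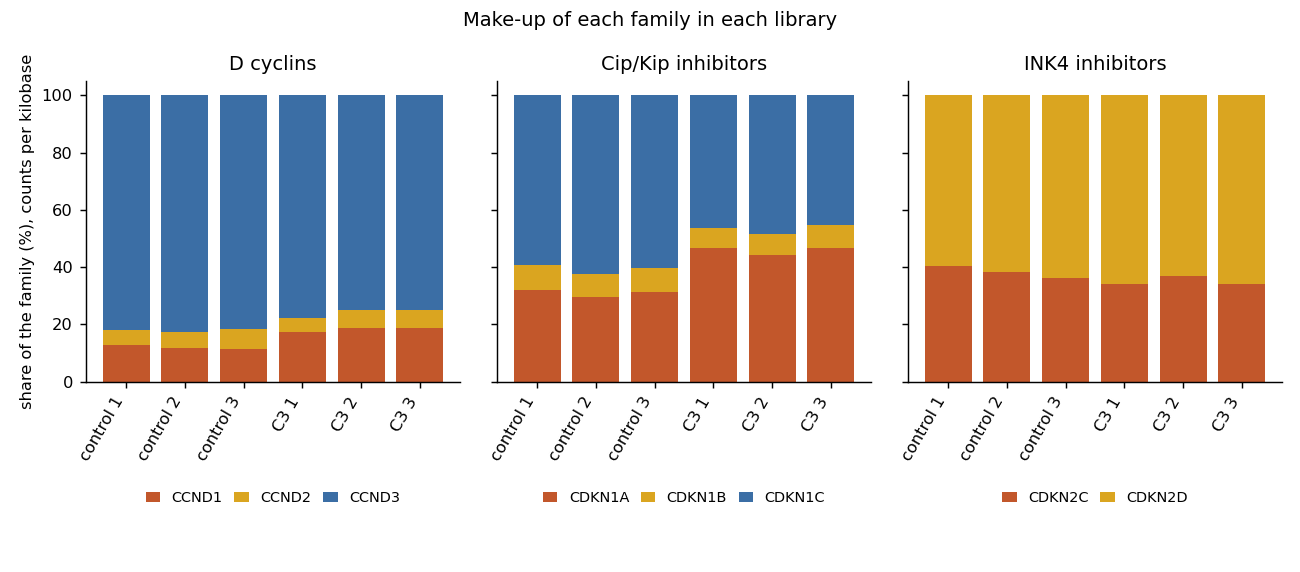
Share of each gene in the summed counts per kilobase of its family (vertical axis, percent, from 0 to 100) in each of the 6 libraries, for D cyclins, Cip/Kip inhibitors and INK4 inhibitors, with each library as a bar and no error bars. The CCND1 part was larger in all C3 libraries (17.3% to 18.9%) than in the control libraries (11.6% to 12.7%), as was the CDKN1A part (44.2% to 46.9% against 29.6% to 31.9%).

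Promoter windows from RefSeq on GRCh38.p14, from 250 bases before to 50 after a start site, were at hand for 7 of the 10 members, 12 windows in all. No window was at hand for CDKN1C and CCND1, which were both called, or for CCND2. They were searched on both strands, with overlaps allowed, for the GC box letters GGGCGG, a word that Sp and KLF factors bind, for the letters CCAAT, and for the words TTTCCCGC, TTTCGCGC, TTTGCCGC and TTTGGCGC, which belong to the E2F motif. A GC box was present in 45% of 35116 promoter windows of all genes, and 4 or more in 9.06%. CDKN1A, called higher, had 4, the window of CDKN2C, called lower, that begins at 50968456 had 6 (at least as many in 2.86% of all windows), and CCNE1, not called, had 7 (1.5%). These 3 windows are shown because genes with different outcomes shared this feature, and capitals mark the GC boxes, read as CCGCCC where the box is on the other strand, with overlapping boxes as 1 longer run. All 3 are on the forward strand and end with the first 50 bases of the RefSeq transcript. The windows of CDKN1A and CDKN2C lie inside the gene bodies annotated by GENCODE, and that of CCNE1 spans the annotated start.
CDKN1A promoter, chr6:36678464-36678763: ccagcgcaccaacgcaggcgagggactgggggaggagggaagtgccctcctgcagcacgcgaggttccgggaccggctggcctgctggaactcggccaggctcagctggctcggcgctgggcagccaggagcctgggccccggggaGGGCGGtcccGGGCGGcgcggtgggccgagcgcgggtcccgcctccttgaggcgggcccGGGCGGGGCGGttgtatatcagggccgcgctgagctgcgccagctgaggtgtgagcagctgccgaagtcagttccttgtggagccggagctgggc
CDKN2C promoter, chr1:50968456-50968755: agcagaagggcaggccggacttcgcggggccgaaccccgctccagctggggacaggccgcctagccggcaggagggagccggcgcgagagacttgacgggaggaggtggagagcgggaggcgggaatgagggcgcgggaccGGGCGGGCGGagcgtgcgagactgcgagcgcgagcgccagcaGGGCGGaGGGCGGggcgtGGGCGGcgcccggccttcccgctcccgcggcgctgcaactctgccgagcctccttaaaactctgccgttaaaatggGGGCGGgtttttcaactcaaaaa
CCNE1 promoter, chr19:29811741-29812040: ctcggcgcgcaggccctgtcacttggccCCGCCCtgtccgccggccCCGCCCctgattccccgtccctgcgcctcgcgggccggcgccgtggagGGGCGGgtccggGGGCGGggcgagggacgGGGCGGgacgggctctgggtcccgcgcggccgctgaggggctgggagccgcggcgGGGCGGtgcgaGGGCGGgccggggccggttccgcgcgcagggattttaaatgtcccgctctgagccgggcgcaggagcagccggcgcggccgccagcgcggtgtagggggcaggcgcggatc
The other windows held 3 GC boxes in CDKN2D, 1 in CDKN1B, 0, 4 and 5 in CCND3, 0 and 3 in CDK6 and 0 and 1 in the other windows of CDKN2C. None of the 12 windows had one of the 4 E2F words, which were found in 3.31% of all windows. CCAAT occurred at least once in 5 of the 12 windows, those of CDKN1B (3 times) and CDKN2D, 2 of CCND3 and 1 of CDKN2C, and in 34.6% of all windows. A match describes the letters of a window and not binding by a factor.

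The other genes of G1 control were read as lists written by function. Over all 15078 tested genes, 761 were called higher and 222 lower by edgeR, and 2533 were higher and 2314 lower at unadjusted p-values below 0.05. Of 15 tested genes of the G1 machinery outside the members, edgeR called 0, and so did DESeq2 and limma-voom, while 1 was higher and 4 were lower at unadjusted p-values below 0.05. The median of the list was a log2 fold change of -0.065. CDK2, the kinase partner of cyclin E, had a log2 fold change of -0.12 (adjusted p = 0.259 by edgeR), and CDK4, the other kinase of the D cyclins, had -0.18 (adjusted p = 0.0537, range over the alternative fits 0.00394 to 0.27). CCNE2, the second E cyclin, was expressed at a low level of 43.2 to 78.4 normalized counts (-0.31, adjusted p = 0.308 by edgeR), and its log2 fold change ran from -0.16 without C3 replicate 1 to -0.44 without C3 replicate 2. On the opposite strand, TSPAN31 overlaps 44.25% of the exon bases of CDK4. Likewise INTS8 and ENSG00000272509 overlap 37.1% of those of CCNE2. Reads in these overlaps cannot be told apart if the strand was not used for counting. The smallest p-values of the list were those of the A cyclins. CCNA2 had 3142, 3229 and 3254 normalized counts in control and 2876, 2812 and 2797 in C3 libraries (log2 fold change -0.18, adjusted p = 0.032 by edgeR, range over the alternative fits 0.00868 to 0.192). CCNA1, a cyclin typical of germ cells that is also found in leukemias, had 282, 294 and 309 in control and 291, 192 and 205 in C3 libraries, where replicate 1 lay within the controls (-0.37, adjusted p = 0.035 by edgeR). Without C3 replicate 1 CCNA1 was called lower (-0.56, adjusted p = 7.51e-04 by edgeR, range over the alternative fits 7.51e-04 to 0.195).

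The retinoblastoma and E2F family with the DREAM complex, which represses cell cycle genes in resting cells, had 20 tested genes and a median log2 fold change of -0.069. Again edgeR, DESeq2 and limma-voom each called 0, with 0 higher and 3 lower genes at unadjusted p-values below 0.05. RB1, the retinoblastoma gene, had a log2 fold change of -0.0077 (adjusted p = 0.954 by edgeR) and E2F1, a transcription factor it binds, had -0.053 (adjusted p = 0.675). With 1 library left out, E2F1 ran from -0.11 without C3 replicate 3 to -0.0010 without C3 replicate 2. Its sign turned with scaling by library size alone (0.021). E2F7, an E2F repressor, had 205, 153 and 162 normalized counts in control and 129, 133 and 123 in C3 libraries (-0.44, adjusted p = 0.0243 by edgeR). This value leaned on control replicate 1, without which E2F7 was at -0.28 (adjusted p = 0.224), and the adjusted p-value was also above 0.05 without C3 replicate 3 (0.112), with scaling by library size alone (0.0746) and by DESeq2 (0.0686). FOXM1, an activator of mitotic genes, had -0.18 (adjusted p = 0.0482 by edgeR, range over the alternative fits 0.0134 to 0.256).

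The list of ubiquitin ligases that act on cyclins and CDK inhibitors had 16 tested genes, among them USP28, whose product removes ubiquitin. Of these genes, edgeR, DESeq2 and limma-voom each called 0, with 1 higher and 5 lower at unadjusted p-values below 0.05. The median of the list was -0.12. SKP2, the subunit that marks p27 for degradation, had 866 to 903 normalized counts in control and 864 to 922 in C3 libraries (log2 fold change 0.013, adjusted p = 0.921 by edgeR). SKP1, a core subunit of the same ligase, had 2826, 3019 and 3302 normalized counts in control and 2439, 2505 and 2488 in C3 libraries. BTRC, another substrate receptor, had 638, 655 and 653 in control and 512, 499 and 521 in C3 libraries. Both genes passed the p-value part of the rule by edgeR but not the fold part, with log2 fold changes of -0.30 for SKP1 (adjusted p = 0.00173) and -0.34 for BTRC (adjusted p = 0.00184). SKP1 missed the p-value part too without control replicate 2 (0.0113) or 3 (0.0119), without C3 replicate 3 (0.0125) and with scaling by library size alone (0.0153), as did BTRC without control replicate 2 (0.0145), without C3 replicate 3 (0.0107) and with that scaling (0.0165). MDM2, a ubiquitin ligase gene outside this list, had 793 to 863 normalized counts in control and 685 to 776 in C3 libraries (-0.20, adjusted p = 0.06 by edgeR).

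Genes that work downstream of G1 were examined in the same way. Of 24 S phase genes driven by E2F, edgeR, DESeq2 and limma-voom called 0, with 4 higher and 6 lower genes at unadjusted p-values below 0.05 and a median of -0.088. MCM10, a replication initiation factor, had 1044, 984 and 1018.5 normalized counts in control and 1176, 1293 and 1289 in C3 libraries, a log2 fold change of 0.30 (adjusted p = 0.00206 by edgeR) that reached the fold gate only with scaling by library size alone (0.38, adjusted p = 7.27e-04, range over the alternative fits 2.40e-04 to 0.0237). RRM1, a subunit of ribonucleotide reductase, had a log2 fold change of -0.22 (adjusted p = 0.0104 by edgeR, range over the alternative fits 0.00273 to 0.0983). Of 23 genes of mitosis and cytokinesis, edgeR called 1 higher and 0 lower, as did DESeq2 and limma-voom, with 2 higher and 7 lower at unadjusted p-values below 0.05 and a median of -0.088. The called gene was CENPE, a kinetochore motor, with 175, 143 and 156 normalized counts in control and 174, 280.4 and 313 in C3 libraries, so that C3 replicate 1 lay within the controls. Its log2 fold change of 0.71 (adjusted p = 0.00173 by edgeR) was 0.64 without control replicate 2 (adjusted p = 0.0124), 0.70 without control replicate 3 (adjusted p = 0.0103) and 0.53 without C3 replicate 3 (adjusted p = 0.0322), and the call was lost in these 3 fits.

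**Figure D4:**
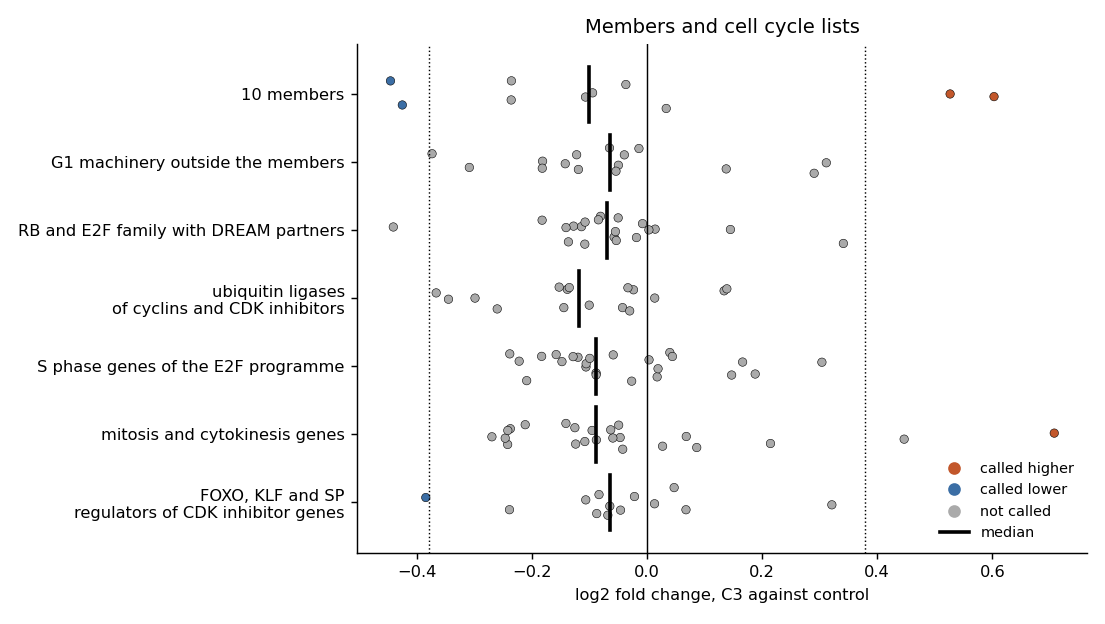
Log2 fold change, C3 against control (horizontal axis), of each tested gene in the 10 members and 6 lists, with a point for each gene, the median of each list as a vertical bar and dotted lines at a 1.3-fold change in either direction. The 4 called members lie outside the dotted lines, whereas 1 mitosis gene and 1 regulator gene were called in the lists shown.

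Transcription factors that act on CDK inhibitor genes formed the last list. Its 13 tested genes were ZBTB17, TFAP4 and genes of the FOXO, KLF, SP and SMAD families, with a median of -0.065. At unadjusted p-values below 0.05, 1 was higher and 1 lower. By all 3 tools 0 were called higher and 1 lower. SMAD4, the common mediator of TGF-beta signals, was that gene, with 1232, 1275 and 1292 normalized counts in control and 990.2, 979 and 943 in C3 libraries. Its log2 fold change of -0.38 (adjusted p = 1.51e-04 by edgeR) lay at the gate and missed it without control replicate 3 (-0.37, adjusted p = 9.25e-04), without C3 replicate 3 (-0.36, adjusted p = 0.00311), with no count filter (-0.37), with a mean count of at least 50 (-0.37) and with scaling by library size alone (-0.31).

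Genes next to the members were read to see whether their neighbourhoods changed. Within 100 kb of a member, 31 other genes were tested, of which edgeR called 3 higher and 0 lower, DESeq2 2 and 0 and limma-voom 3 and 0, with 9 higher and 7 lower at unadjusted p-values below 0.05. Of all 15078 tested genes, edgeR called 5.05% higher and 1.47% lower, and 2533 were higher and 2314 lower at unadjusted p-values below 0.05. CPNE5, a copine that binds membranes in the presence of calcium, lies 53.4 kb from CDKN1A and had 14.7, 15.9 and 22.7 normalized counts in control and 56.9, 45.0 and 45.5 in C3 libraries (log2 fold change 1.47, adjusted p = 5.84e-04 by edgeR). The closer RAB44, 10.5 kb from CDKN1A, had a log2 fold change of 0.13 (adjusted p = 0.505 by edgeR). The other called genes lie near CDKN2D. SLC44A2, a choline transporter-like gene 33.4 kb away, had 954, 991 and 1058 normalized counts in control and 1895, 1774 and 1725 in C3 libraries (0.84, adjusted p = 1.67e-09 by edgeR). S1PR5, a sphingosine-1-phosphate receptor gene 48.5 kb away, had 0 to 4.24 normalized counts in control and 8.63 to 17.2 in C3 libraries (2.6, adjusted p = 0.00467 by edgeR), and lost its call without control replicate 1 (2.55, adjusted p = 0.0213) or 3 (2.11, adjusted p = 0.0232). Without control replicate 2 its log2 fold change was 3.52 and the call was kept (adjusted p = 0.00432 by edgeR). S1PR5 reached 10 counts in the C3 libraries only and was therefore not tested with any of these left out, so its call rests on few counts. The 2 neighbours that DESeq2 called were CPNE5 and SLC44A2, and S1PR5 was not called by it. KRI1, only 0.429 kb from CDKN2D, had a log2 fold change of 0.15 (adjusted p = 0.116 by edgeR). KEAP1, 62.9 kb from CDKN2D, was lower (-0.34, adjusted p = 8.53e-04 by edgeR) and missed the fold gate. RAB44, KRI1 and KEAP1 were named after their values were seen. No called gene lay within 100 kb of CDKN1C, CDKN2C or CCND1, which had 5, 1 and 1 tested neighbours.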

How the data were processed

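RNA of 3 untreated and 3 C3-treated Meg-01 libraries was measured. Per the submitters' processing notes and the methods, the authors trimmed reads with fastp, mapped them to GRCh38 with STAR (2.6.1d) and counted them per gene with featureCounts (1.5.0-p3). The deposited values are raw counts for 58735 Ensembl genes, without normalization. Not given in the sources used here are the strand setting and the annotation release, which leaves reads of overlapping genes uncertain.

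The 15078 genes that reached 10 counts in 3 or more libraries were tested in R 4.3.3 with edgeR 4.0.16, using TMM factors and the quasi-likelihood test, Benjamini-Hochberg adjustment over all of them and no replicate block. The spread between libraries of a group was 6.21%, as the square root of the common dispersion. A standard error is the ratio of a log2 fold change to the root of its F statistic. Permutation tests were exact and two-sided (scipy 1.17.1). Coordinates, symbols (58207 of 58735 identifiers) and merged exon lengths came from GENCODE release 44 on GRCh38, and promoter windows from RefSeq on GRCh38.p14.

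The genes named are the members, MDM2, RB1, E2F1, CDK2, CDK4, CCNE2 and SKP2, the called genes of each list (at most 4 per direction) or, where none was called, the 2 with the smallest p-values, the called neighbours, the most abundant and the called marker genes, and genes that overlap members. The members and lists were chosen with earlier results of these data known. Alternatives were scaling by RLE factors or by library size, testing every gene with a count, a mean count minimum of 50, DESeq2 (1.42.0), limma-voom (3.58.1), a replicate block, each library left out and an adjusted p-value below 0.05 with no fold gate. The fits were also run on simulated data, and the outcome is not reported here. One named gene and 1 list are not reported here.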

Additional observations from a re-analysis of the deposited data

How the results depend on the processing

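The calls of CDKN1A and CCND1 held in all 13 alternative fits (log2 fold changes of 0.47 to 0.60 and 0.57 to 0.68), and those of CDKN1C and CDKN2C in 12 of 13. With library size alone, which moved the median of all genes by 0.074, CDKN1C was at -0.35 and CDKN2C at -0.37, so 0 members were called lower. That scaling also called 1025 genes higher and 100 lower in all, 4 neighbours, and 1 S phase gene (MCM10) higher. It still called 1 regulator gene, but a different one, since SMAD4 (-0.31) missed the fold gate. The signs of CCND2 (0.040), RB1 (0.069), E2F1 (0.021), ITGA2B (0.012) and EPCAM (0.015) turned with it. At an adjusted p-value below 0.05 with no fold gate, CDKN1B (-0.24) and CDKN2D (-0.24) passed in the main fit, though not in every other one, and 4 members were lower, with 1658 genes higher and 1323 lower in all. That rule counted 2 G1 machinery, 2 retinoblastoma and E2F, 3 ubiquitin ligase, 4 S phase, 8 mitosis and 2 regulator genes, and 7 neighbours. No count filter and a mean count of at least 50 left 0 regulator genes and turned RB1 (0.0032 and 0.0059), and the latter left 1 neighbour, since low genes were not tested. Leaving out each library gave 129 to 340 genes lower in all (fewest without C3 replicate 3, most without C3 replicate 1), and 0 to 1 called genes each for G1 machinery, mitosis and regulator lists. In these fits log2 fold changes ran from -0.10 to 0.081 for CCND2 (0.081 without control replicate 3, 0.027 without C3 replicate 1) and from -0.0044 (without C3 replicate 2) to 0.068 for CDK6. In the same fits RB1 (-0.052 to 0.062) turned without control replicate 3 (0.023) and without C3 replicate 1 (0.062), SKP2 (-0.0095 to 0.045) without C3 replicate 2 (-0.0095) and EPCAM (-0.15 to 0.044) without control replicate 2 (0.044). The CCND2 share difference of -0.16 points became 0.36 without control replicate 3 and 0.28 without C3 replicate 1 (range -0.54 to 0.36). Without division by length, share differences were 5.33 points for CCND1, -3.03 for CDKN1B and -10.9 for CDKN1C. For the reversals the cause was not tested.

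Replicate numbers were not taken to pair the libraries. Deviations of same-numbered libraries correlated at -0.047 to 0.030, and 2 of 6 libraries correlated best with their own number. With the replicate number as a block, 909 genes were higher and 268 lower, 1 G1 machinery gene (CCNA1) was called and the member calls were 2 higher and 2 lower. At low counts, as for CCNE2, TUBB1, S1PR5 and COL1A1, depth limits the precision.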
